A study of Mus musculus with 48 samples.

Results

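The MYC, MAX and MXD network was followed through 10 genes. Myc and Mycn encode activators, and Max encodes the partner they need to bind DNA. Mlx encodes a partner of other factors, named below. Mxd1, Mxd3, Mxd4, Mxi1 and Mnt encode antagonists, and Mga encodes a large scaffold that also binds MAX. The genes were taken as a named list and made up 10 of the 18193 genes on the array. Every probe set annotated to 1 of them alone was read, which gave 26 of the 45037 probe sets analysed. Of these, 24 passed the filter on low values and were tested beside 27167 probe sets in all. The other 2, both annotated to Mga, had group mean signals of at most 7.67 and at most 2.67.

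MYC and MAX bind DNA as a pair at the E-box and drive genes of cell growth, nucleotide synthesis and ribosome production. MXD proteins and MNT compete for MAX and repress the same kind of sites through SIN3 and histone deacetylases, and in blood cells MYC is known to fall and MXD1 to rise as precursors leave the cell cycle. MLX is the partner of MondoA and ChREBP, sensors of glucose metabolites, and can also pair with MXD1, MXD4 and MNT.

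The data came from 48 samples of the mouse line 32D, each hybridised to 1 Affymetrix MOE430_2 array. These immature myeloid cells here carried BCR/ABL in its p210 form. The labels speak of triplicates and also of separate experiments, so whether the 3 arrays of a group were separate cultures is not known. Lines had been transduced with the MigRI retroviral vector, either empty (vector line) or carrying C/EBPα-ER, the granulocytic transcription factor C/EBPα joined to an estrogen receptor domain. C/EBPα was wild type (WT line), K298E, which does not bind DNA, or Δ(177-191), which lacks the contact with CDK2 and CDK4, as the labels describe them. All 4 lines received 4-hydroxytamoxifen (4-HT), which activates the fusion, and RNA was taken at 0, 6, 9 and 12 h, which gave 16 groups of 3 arrays. The vector line therefore carries BCR/ABL and received 4-HT as well, while no culture kept without 4-HT for 6 to 12 h was analysed here. There was 1 line for each construct, and the labels do not say whether a line was 1 clone, so a difference between constructs cannot be told apart from a difference between lines. Values are deposited MAS5 signals, linear brightness scaled so that the trimmed mean of each array was between 97.97 and 100.04, and differences are given as log2(signal + 3) ± SE, which understates the change of dim probe sets.

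The median signal was 11 to 19 on the 48 arrays, and the mean correlation of an array with the other 2 of its group was 0.936 to 0.966. The probe set of Esr1, the estrogen receptor gene whose domain the fusions carry, read 5 to 29 on vector arrays, 728 to 1599 on K298E arrays, 1927 to 2607 on WT arrays and 2787 to 4472 on Δ(177-191) arrays. Whether it reads the same piece of each fusion was not tested. Of 12 early myeloid progenitor markers, 8 to 10 had a group mean signal of 50 or more, but Kit and Cd34 stayed at 15.7 or less and at 9 or less, near the bottom of the scale. Summed signals of erythroid, lymphoid and fibroblast markers were at most 179 on any array. Granulocyte and monocyte markers, 14 genes in all, summed to 1308 to 1350 on vector arrays at 0 h but to 6521 to 6820 on Δ(177-191) arrays at 0 h and to 10008 to 17448 after 4-HT. In the WT line this sum went from 1891 to 2020 at 0 h to 2964 to 3817 after 4-HT. Bright genes dominate these sums. In the Δ(177-191) line the mean of Lcn2 went from 2880 at 0 h to 6483 at 12 h, and that of S100a9 from 598 to 251. Over 6, 9 and 12 h on average, 4 of 12 tested rose there and 4 fell, beside 14.5% and 21.2% of all genes. In WT 4 rose and 3 fell, beside 16.7% and 19.6%. At 0 h 10 were higher and 0 lower in Δ(177-191) than in vector, beside 13.2% and 15.3%. The Δ(177-191) line therefore differed from the vector line before treatment, and the part of this in the network's values was not tested.

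RefSeq promoter entries (GRCm38.p6) were matched by symbol for 9 of the 10 genes, with 11 entries in all because Mxi1 has 3. The 250 bases before the start are shown for Mycn, the member with the largest change, and for Mxd4, whose signal changed in the vector line too, because in both the window ends at the annotated first base of the gene. Capitals mark matches, on either strand, to the E-box CACGTG, to TTGCNNAA, a form of the C/EBP site, or to TTTGGCGC, a form of the E2F site. The Mycn window is chr12:12941837-12942086 and the Mxd4 window chr5:34187711-34187960, both on the minus strand and printed 5′ to 3′.
Mycn: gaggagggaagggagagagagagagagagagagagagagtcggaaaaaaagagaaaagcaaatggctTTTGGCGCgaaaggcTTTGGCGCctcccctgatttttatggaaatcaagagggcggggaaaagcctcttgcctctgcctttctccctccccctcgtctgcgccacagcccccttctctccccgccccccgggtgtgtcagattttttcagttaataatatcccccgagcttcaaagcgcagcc
Mxd4: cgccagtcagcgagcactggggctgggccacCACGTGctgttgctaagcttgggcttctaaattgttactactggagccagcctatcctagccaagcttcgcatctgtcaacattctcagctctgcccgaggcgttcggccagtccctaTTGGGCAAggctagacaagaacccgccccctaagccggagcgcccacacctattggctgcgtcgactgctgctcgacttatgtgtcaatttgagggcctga

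The Mycn window held 2 E2F-type matches, beginning 183 and 168 bases before the start, and no match to the other motifs. The Mxd4 window held an E-box 219 bases before the start and a C/EBP-type match, read on the other strand, 101 bases before it. The motifs do not overlap in either window. Of the 11 entries, 3 held an E-box (Mxd4, Mlx and Mnt), 1 held the C/EBP form and 1 the E2F form. Over all 32851 entries of the same length the shares were 6.02%, 9.56% and 0.417%. A match is a stretch of letters and not a measured site.

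Calls among the network probe sets, in both directions, were more frequent in the WT and Δ(177-191) lines than in the others. The same was true of all probe sets tested. In the mean change over 6, 9 and 12 h from 0 h, 5 of the 24 network probe sets were higher and 6 lower in the WT line, beside 13.8% higher and 16.3% lower of all probe sets tested (adjusted p under 0.05, limma with Benjamini-Hochberg adjustment over all 27167). In the Δ(177-191) line 5 were higher and 9 lower, beside 12.9% and 16.6%. In the vector line 0 were higher and 4 lower, beside 8.32% and 10.3%, and in the K298E line 0 and 0, beside 2.24% and 2.72%. Of these shares, the 37.5% lower in the Δ(177-191) line was the furthest above its background. Some genes have several probe sets, so here and below such counts can exceed the number of genes. The calls in mean changes from 0 h came from 3 genes higher and 3 lower in the WT line. They came from 2 and 6 genes in the Δ(177-191) line and from 0 and 2 in the vector line. In the mean changes, their differences between lines and the comparisons at 0 h, 49 gene and comparison pairs held a call, and in 0 of them did called probe sets of a gene differ in direction.

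Differences between lines compare mean changes from each line's own 0 h, not levels. Set against the change of the vector line, 3 network probe sets were higher and 1 lower in the WT line, beside 3.85% and 3.42% of all. The counts were 3 and 0 in the K298E line, beside 2.83% and 1.74%, and 7 and 5 in the Δ(177-191) line, beside 9.33% and 10.7%. These 3 comparisons share the vector arrays. Between fusions, WT minus K298E gave 5 higher and 3 lower, beside 6.59% and 7.08%, and WT minus Δ(177-191) gave 5 higher and 0 lower, beside 10.5% and 9.32%. At 0 h, before 4-HT, the WT line had 1 network probe set above and 3 below the vector line, beside 2.07% and 2.0%. The K298E line had 0 and 2, beside 2.22% and 2.6%, and the Δ(177-191) line 6 and 4, beside 10.4% and 12.6%. Taking times singly, 80 of 288 changes from 0 h were called, beside 17.7%, and 47 of 216 changes minus vector, beside 8.02%. From 6 to 12 h, 24 of 96 were called, beside 10.3%. Single arrays moved some of these network counts by over 1.5 times: K298E minus vector had 1 call without K298E replicate 1 at 0 h, WT minus K298E had 5 without WT replicate 3 at 0 h, the WT line at 0 h had 2 without vector replicate 1, and the K298E line at 0 h had 1 without vector replicate 1 or 2 or any 1 of its own arrays. The K298E line's own change had 1 call without Δ(177-191) replicate 3 at 6 h.

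The scale matters, and not for the WT line alone. The median of an array was a signal of 11 to 19, near the bottom of the scale. Centring on it therefore shifts bright probe sets by the level of dim ones. Centring every array on its own median moved the median of all probe sets from -0.04 to 0.10 in WT minus vector, from -0.05 to 0.09 in WT minus K298E, from -0.06 to 0.14 in WT minus Δ(177-191), from -0.07 to 0.05 in the WT line's own change and from 0.00036 to -0.14 in the WT line at 0 h. Network calls then split 5 higher and 3 lower in the WT line, 4 and 1 in WT minus K298E, 2 and 4 in Δ(177-191) minus vector, 0 and 2 in the WT line at 0 h and 6 and 2 in the Δ(177-191) line at 0 h. Quantile normalization gave 6 and 3 in the WT line and 5 and 1 in WT minus K298E. Of all calls, the share that was higher went under centring from 44.7% to 34.1% in the vector line, from 45.9% to 62.5% in the WT line, from 45.1% to 32.8% in the K298E line and from 43.8% to 30.4% in the Δ(177-191) line. It went from 53.0% to 76.4% in WT minus vector, from 62.0% to 94.4% in K298E minus vector, from 48.2% to 67.9% in WT minus K298E and from 53.0% to 79.4% in WT minus Δ(177-191). At 0 h it went from 50.9% to 34.3% in the WT line and from 46.0% to 22.4% in the K298E line. No network difference changed sign together with a call under either scaling.

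Myc, the network's main activator, rose after 4-HT in the WT line and fell in the Δ(177-191) line. WT arrays of its 1 probe set (1424942_a_at) read 1119, 1198 and 1243 at 0 h, 1714, 1974 and 2120 at 6 h, 1543, 1462 and 1296 at 9 h, and 1409, 1320 and 1455 at 12 h. Δ(177-191) arrays read 1863, 1841 and 1905 at 0 h, 749, 783 and 660 at 6 h, 672, 805 and 799 at 9 h, and 592, 764 and 665 at 12 h. No WT array after 4-HT was as low as the highest of that line at 0 h, and no Δ(177-191) array after 4-HT was as high as the lowest of that line at 0 h. In the vector line the signal was 791, 814 and 953 at 0 h, 978, 1049 and 1093 at 6 h, 616, 750 and 697 at 9 h, and 594, 560 and 609 at 12 h. In the K298E line it was 908, 852 and 840 at 0 h, 934, 857 and 869 at 6 h, 662, 786 and 644 at 9 h, and 709, 726 and 703 at 12 h. In both of these lines the 9 h and 12 h arrays were below every 0 h array of the line, while the 6 h arrays of the vector line were above them.

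**Figure D1:**
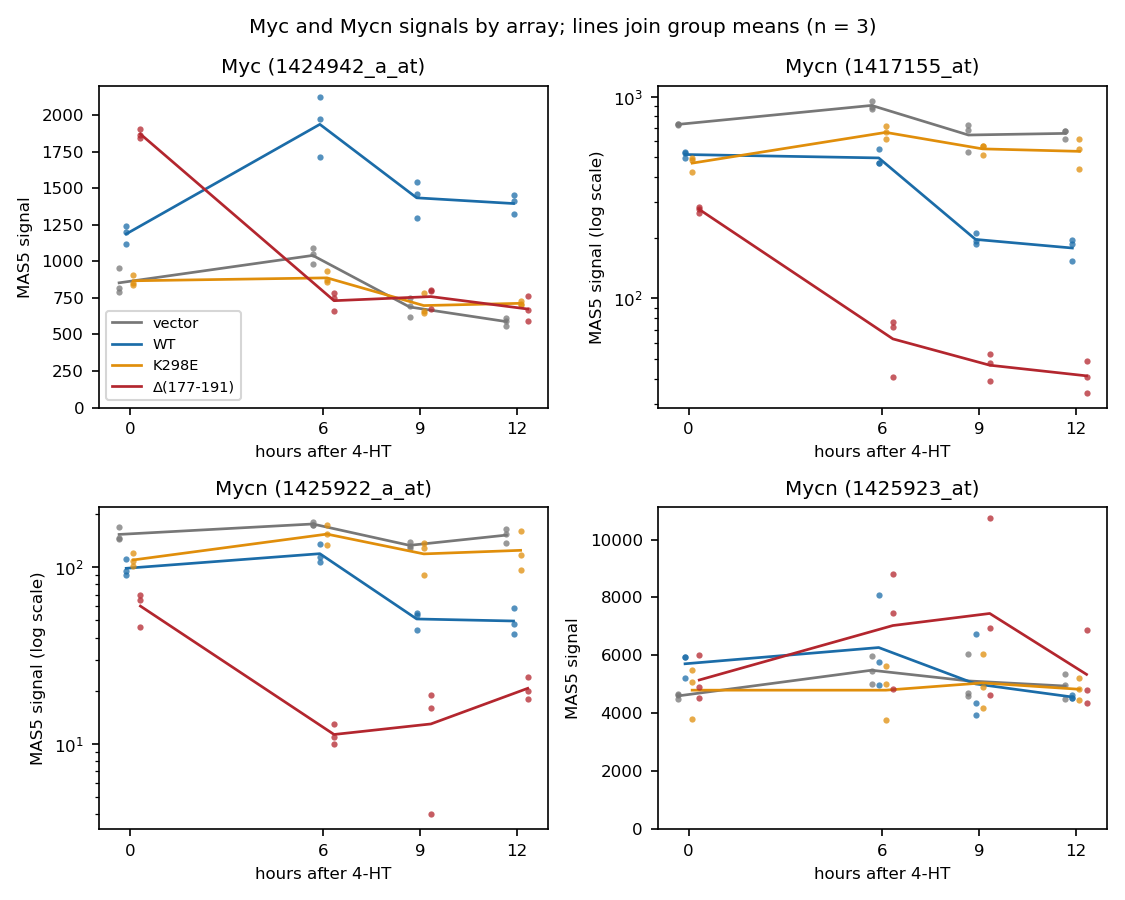
Signals of the Myc probe set and the 3 Mycn probe sets by array (points) and group mean (lines, n = 3) against hours after 4-HT, in the vector, WT, K298E and Δ(177-191) lines; the 1417155_at and 1425922_a_at panels have a log axis. Myc lay at 1296 to 2120 in the WT line and at 592 to 805 in the Δ(177-191) line after 4-HT, and 1417155_at fell to 34 to 76 in the Δ(177-191) line.

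The mean change of Myc was 0.40 ± 0.08 in the WT line (adjusted p = 3.84e-05) and -1.38 ± 0.08 in the Δ(177-191) line (adjusted p = 6.34e-19), which is a fall of 2.6-fold. In the vector line it was -0.18 ± 0.08 (adjusted p = 0.0915), but with 0.29 at 6 h (adjusted p = 0.0265) and -0.53 at 12 h (adjusted p = 3.94e-05), so its mean hides movement both ways. This mean passed under quantile normalization, with array weights and over 9 and 12 h alone. The WT change exceeded that of the vector line by 0.58 ± 0.11 (adjusted p = 0.000125), with 0.41 at 6 h (adjusted p = 0.0628), 0.58 at 9 h (adjusted p = 0.00323) and 0.76 at 12 h (adjusted p = 6.17e-05). The Δ(177-191) change minus that of vector was -1.19 ± 0.11 (adjusted p = 6.35e-12), with -1.64 at 6 h, -0.99 at 9 h and -0.95 at 12 h. K298E minus vector was -0.0049 ± 0.11 (adjusted p = 0.992), with a 95% interval from -0.22 to 0.21. WT minus K298E was 0.59 ± 0.11 (adjusted p = 7.73e-05) and WT minus Δ(177-191) was 1.78 ± 0.11 (adjusted p = 1.27e-16). As each array read a whole culture, fewer cells with the transcript and less transcript per cell cannot be told apart, for this and every other gene.

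The Δ(177-191) line began from the highest Myc level of the 4. At 0 h it stood above the vector line by 1.13 ± 0.09 (adjusted p = 1.96e-13), and its 3 arrays did not overlap those of any other line. The WT line stood above vector by 0.48 ± 0.09 (adjusted p = 0.000617), a call that was lost without replicate 2 of every group (adjusted p = 0.0733) and under median centring (adjusted p = 0.448). After 4-HT the order of the means was WT first at every time, and at 6 h vector, K298E and Δ(177-191) followed with means of 1040, 887 and 731. At 12 h the Δ(177-191) arrays, 592 to 764, overlapped the vector arrays, 560 to 609, and the K298E arrays, 703 to 726.

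Mycn, a paralog of Myc that early blood progenitors also use, fell in both the WT and the Δ(177-191) lines by 2 of its 3 probe sets. In the WT line probe set 1417155_at read 529, 497 and 523 at 0 h, 468, 552 and 470 at 6 h, 186, 210 and 192 at 9 h, and 194, 154 and 185 at 12 h. In the Δ(177-191) line it read 278, 265 and 285 at 0 h, 76, 72 and 41 at 6 h, 39, 48 and 53 at 9 h, and 49, 34 and 41 at 12 h. The Δ(177-191) line was already lower at 6 h (-2.13 ± 0.14, adjusted p = 3.15e-16), while the 6 h arrays of the WT line spanned those at 0 h (-0.06 ± 0.14, adjusted p = 0.827). Vector arrays read 728, 729 and 727 at 0 h, 955, 889 and 868 at 6 h, 534, 682 and 719 at 9 h, and 678, 616 and 677 at 12 h. K298E arrays read 494, 486 and 424 at 0 h, 614, 667 and 713 at 6 h, 571, 567 and 514 at 9 h, and 440, 550 and 616 at 12 h. The lowest treated array of these lines, at 440, stood above every 9 h and 12 h array of the WT line.

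The mean change by this probe set was -0.99 ± 0.11 in the WT line (adjusted p = 1.88e-09) and -2.43 ± 0.11 in the Δ(177-191) line (adjusted p = 3.04e-21), a fall of 5.39-fold and the largest mean change of the network. Minus the vector change it was -0.98 ± 0.16 for WT (adjusted p = 1.98e-05) and -2.42 ± 0.16 for Δ(177-191) (adjusted p = 9.29e-16). WT minus K298E was -1.30 ± 0.16 (adjusted p = 6.44e-08) and WT minus Δ(177-191) was 1.44 ± 0.16 (adjusted p = 2.84e-09). K298E minus vector was 0.32 ± 0.16, which did not pass. In the WT line, then, Myc and Mycn moved in opposite directions relative to vector, and in the Δ(177-191) line both changes were below that of vector.

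The second Mycn probe set, 1425922_a_at, followed the first over the 16 group means (Pearson r = 0.98, a description). It fell by 1.89 in the Δ(177-191) line (adjusted p = 2.98e-11) and by 0.53 in the WT line (adjusted p = 0.024), a call lost without WT replicate 1 or 2 at 0 h, without replicate 1 of every group (adjusted p of up to 0.308) and under both other scalings. WT minus vector by this probe set was -0.53 ± 0.26 and did not pass (adjusted p = 0.299). From 6 to 12 h in the Δ(177-191) line the 2 disagreed: 1417155_at went lower by 0.54 (-0.54 ± 0.14, adjusted p = 0.00489), while 1425922_a_at went from a mean of 11.3 to 20.7 (0.72 ± 0.23, adjusted p = 0.0245). The brightest Mycn probe set, 1425923_at, had group means of 4561 to 7446, no call in any comparison of mean changes or at 0 h, and r = -0.53 and -0.62 with the other 2. Its replicates spread widely, from 4632 to 10756 at 9 h in the Δ(177-191) line. The Mycn results therefore rest on 1417155_at and 1425922_a_at, and what 1425923_at reads was not tested.

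At 0 h Mycn by 1417155_at was lowest in the Δ(177-191) line, -1.39 ± 0.14 against vector (adjusted p = 6.84e-11), where Myc was highest. It was also below vector in the K298E line (-0.64 ± 0.14, adjusted p = 0.00281) and in the WT line (-0.49 ± 0.14, adjusted p = 0.031). The K298E call was lost without replicate 2 of every group (adjusted p = 0.0864) and under median centring (adjusted p = 0.154). The WT call was lost without any 1 of the 6 vector and WT arrays at 0 h or any replicate number (adjusted p of up to 0.355 over these) and under median centring (adjusted p = 0.141).

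Max, which pairs with every MYC and MXD protein, passed the test in no comparison of mean changes or at 0 h. Its probe set (1423501_at) had group means from 401 to 757, and in the WT line its 9 treated arrays ran from 249 through a median of 710 to 853. The change was 0.21 ± 0.16 in the vector line, 0.24 ± 0.16 in WT, -0.05 ± 0.16 in K298E and 0.03 ± 0.16 in Δ(177-191). WT minus vector was 0.03, with a 95% interval from -0.44 to 0.50, so a difference of that size either way was not detectable. Without WT replicate 2 at 9 h, whose signal was 249 beside 528 and 671, the WT line's own change passed the test (adjusted p = 0.0198).

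Mlx, partner of MondoA and ChREBP and of some MXD proteins, rose in the WT and Δ(177-191) lines. Its brighter probe set (1425930_a_at) read, in the WT line, 107, 85 and 119 at 0 h, 135, 119 and 138 at 6 h, 160, 181 and 202 at 9 h, and 176, 165 and 162 at 12 h. In the Δ(177-191) line it read 108, 83 and 80 at 0 h, 119, 101 and 103 at 6 h, 192, 183 and 186 at 9 h, and 209, 189 and 172 at 12 h. In both lines the 9 h and 12 h arrays were above every 0 h array. Vector arrays read 117, 116 and 130 at 0 h, 115, 135 and 150 at 6 h, 159, 145 and 143 at 9 h, and 149, 134 and 119 at 12 h. K298E arrays read 135, 114 and 107 at 0 h, 114, 126 and 153 at 6 h, 133, 101 and 116 at 9 h, and 121, 113 and 96 at 12 h. The K298E arrays overlapped between all times.

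**Figure D2:**
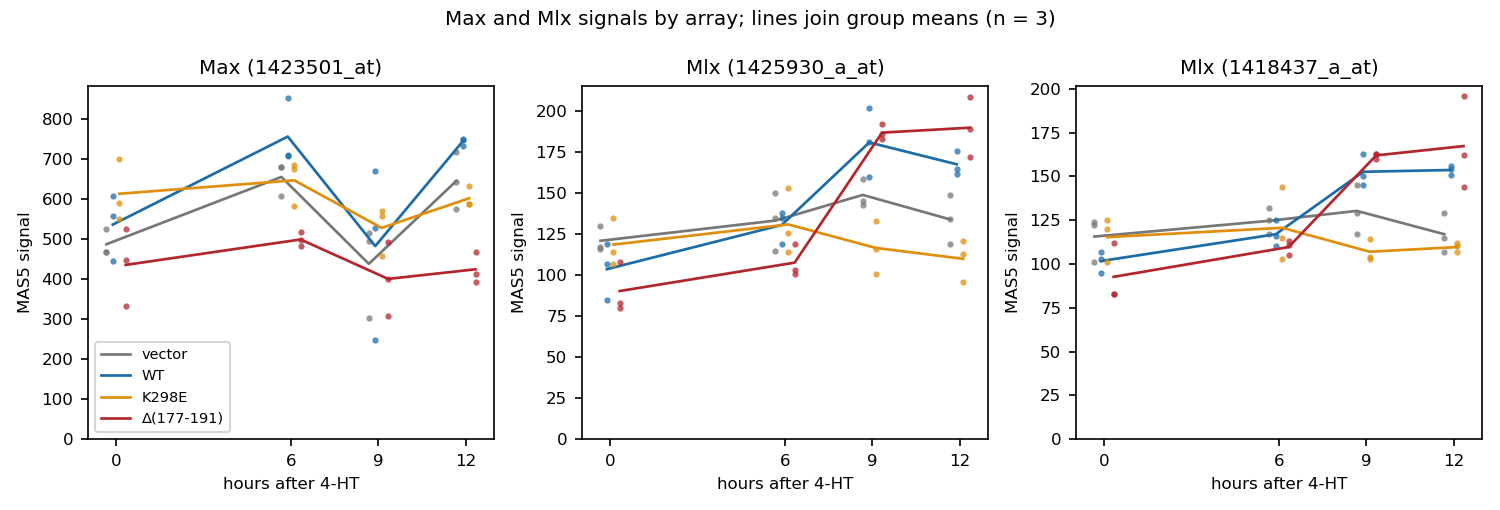
Signals of Max and of both Mlx probe sets by array (points) and group mean (lines, n = 3) against hours after 4-HT in the 4 lines. Max overlapped widely between lines, while Mlx by 1425930_a_at reached 160 to 209 at 9 and 12 h in the WT and Δ(177-191) lines and 96 to 159 in the other 2.

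The mean change of Mlx was 0.61 ± 0.11 in the WT line (adjusted p = 9.29e-06) and 0.78 ± 0.11 in the Δ(177-191) line (adjusted p = 6.44e-08). The second probe set (1418437_a_at) gave 0.45 and 0.63 for the same changes, and the pair had r = 0.98 over the group means. The Δ(177-191) change exceeded that of vector by 0.59 ± 0.15 (adjusted p = 0.00234), lost without replicate 2 or 3 of every group (adjusted p of up to 0.0661) and under median centring (adjusted p = 0.101). WT minus vector was 0.42 ± 0.15 and did not pass (adjusted p = 0.0871), although it did without WT replicate 3 at 0 h (adjusted p = 0.0365), with array weights and over 9 and 12 h alone. WT minus K298E was 0.61 ± 0.15 (adjusted p = 0.00326), lost without replicate 2 of every group (adjusted p = 0.191), and WT minus Δ(177-191) was -0.18, with a 95% interval from -0.48 to 0.13. At 0 h Mlx was lower in the Δ(177-191) line than in vector (-0.42 ± 0.13, adjusted p = 0.0126), lost without vector replicate 3 or Δ(177-191) replicate 2 or 3 at 0 h, without replicate 2 or 3 of every group (adjusted p of up to 0.236) and under median centring (adjusted p = 0.0667).

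Mxd1, the MXD protein of maturing myeloid cells, was highest in the Δ(177-191) line. Its brightest probe set (1434830_at) read 75, 76 and 56 there at 0 h, and 97 to 137 with a median of 128 on the 9 treated arrays, all above every 0 h array. In the vector line it read 4 to 25 over all times, in K298E 15 to 28 and in WT 18 to 41. The Δ(177-191) arrays overlapped no array of the other lines. At 0 h the Δ(177-191) line exceeded vector by 2.11 ± 0.27 (adjusted p = 2.92e-08), or 4.33-fold, and the second probe set (1455104_at) gave 1.74 ± 0.38, while the dimmest (1422002_at) gave 0.79 ± 0.49, which did not pass. The WT line exceeded vector at 0 h by 0.69 ± 0.27, which did not pass (adjusted p = 0.174).

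After 4-HT Mxd1 rose in the Δ(177-191) line by 0.83 ± 0.22 (adjusted p = 0.00288), and its 3 probe sets all passed in this direction. By the leading probe set the call was lost without replicate 3 of every group (adjusted p = 0.0597), and by the others under 10 and 3 of 51 settings that left out an array or a replicate number (adjusted p of up to 0.232 and 0.3). Minus the vector change it was 0.94 ± 0.31 (adjusted p = 0.0262), lost without vector replicate 2 or Δ(177-191) replicate 3 at 0 h, without replicate 2 or 3 of every group (adjusted p of up to 0.183) and under median centring (adjusted p = 0.101). WT minus vector was 0.55 ± 0.31 and did not pass, and WT minus Δ(177-191) was -0.39, with a 95% interval from -1.03 to 0.25. The sums of granulocyte and monocyte markers given above were also highest in the Δ(177-191) line before and after 4-HT. Of the 12 tested, however, 4 rose and 4 fell there after 4-HT, beside 14.5% and 21.2% of all genes. The part of these markers in the Mxd1 values was not tested.

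Mxd3, the MXD protein found in cycling cells, was dim, and its 3 probe sets gave falls in different lines. The brightest (1438847_at) read 63, 77 and 64 at 0 h in the WT line and 31 to 56 on the 9 treated arrays, all below every 0 h array. Its change was -0.57 ± 0.19 (adjusted p = 0.0184), lost without WT replicate 2 at 0 h or replicate 2 of every group (adjusted p of up to 0.287), under both other scalings and in the mean over 9 and 12 h. Probe set 1448878_at fell instead in the Δ(177-191) line, from 47, 49 and 49 at 0 h to 19 to 38, a change of -0.88 ± 0.19 (adjusted p = 0.000349) with all 9 treated arrays below every 0 h array. Its difference from vector, -0.75 ± 0.27 (adjusted p = 0.0466), was lost under 29 of 51 settings that left out an array or a replicate number (adjusted p of up to 0.324). The dimmest, 1422970_at, fell in both lines, by 0.74 in WT (adjusted p = 0.0306) and by 0.83 in Δ(177-191) (adjusted p = 0.0154), calls lost under 7 and 2 of these settings (adjusted p of up to 0.188 and 0.195).

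Mxd4, which is associated with resting and differentiating cells, fell after 4-HT in the vector line itself. Its brightest probe set (1434379_at) read 138, 150 and 140 at 0 h in the vector line and then 118, 93 and 92 at 6 h, 51, 80 and 70 at 9 h, and 55, 61 and 45 at 12 h. K298E arrays read 142, 193 and 139 at 0 h, then 114, 94 and 99 at 6 h, 123, 147 and 147 at 9 h, and 144, 147 and 135 at 12 h. The K298E line thus fell at 6 h, and at 9 and 12 h all but 1 array at each time lay within its 0 h range, while the vector line went on down. In the WT line the 9 treated arrays ran from 67 to 106 below 0 h values of 153, 136 and 161, and in the Δ(177-191) line from 75 to 124 below 137, 128 and 143.

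The mean change of Mxd4 was -0.98 ± 0.12 in the vector line (adjusted p = 2.84e-08), -0.73 ± 0.12 in WT (adjusted p = 4.14e-06), -0.45 ± 0.12 in Δ(177-191) (adjusted p = 0.00331) and -0.30 ± 0.12 in K298E (adjusted p = 0.175). The Δ(177-191) call was lost without replicate 3 of every group (adjusted p = 0.095). Relative to the vector change, that of K298E was higher by 0.68 ± 0.17 (adjusted p = 0.0113), with 1.24 ± 0.21 at 12 h (adjusted p = 0.000104), and Δ(177-191) by 0.53 ± 0.17 (adjusted p = 0.0201). The first was lost without K298E replicate 1 or 3 at 0 h or replicate 1 or 3 of every group (adjusted p of up to 0.249), the second without vector or Δ(177-191) replicate 2 at 0 h or any replicate number (adjusted p of up to 0.118), and both under median centring (adjusted p = 0.297 and 0.24). Probe set 1434378_a_at also fell in the vector, WT and Δ(177-191) lines, by 0.84, 0.85 and 0.69, while the dimmer 1422574_at and 1422575_at gave no call in these comparisons. In K298E and in Δ(177-191) minus vector, the leading probe set was the only 1 of Mxd4 called. At 0 h 1 Mxd4 probe set was higher in Δ(177-191) than in vector, and 1 other than the leading was lower in WT minus K298E.

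**Figure D3:**
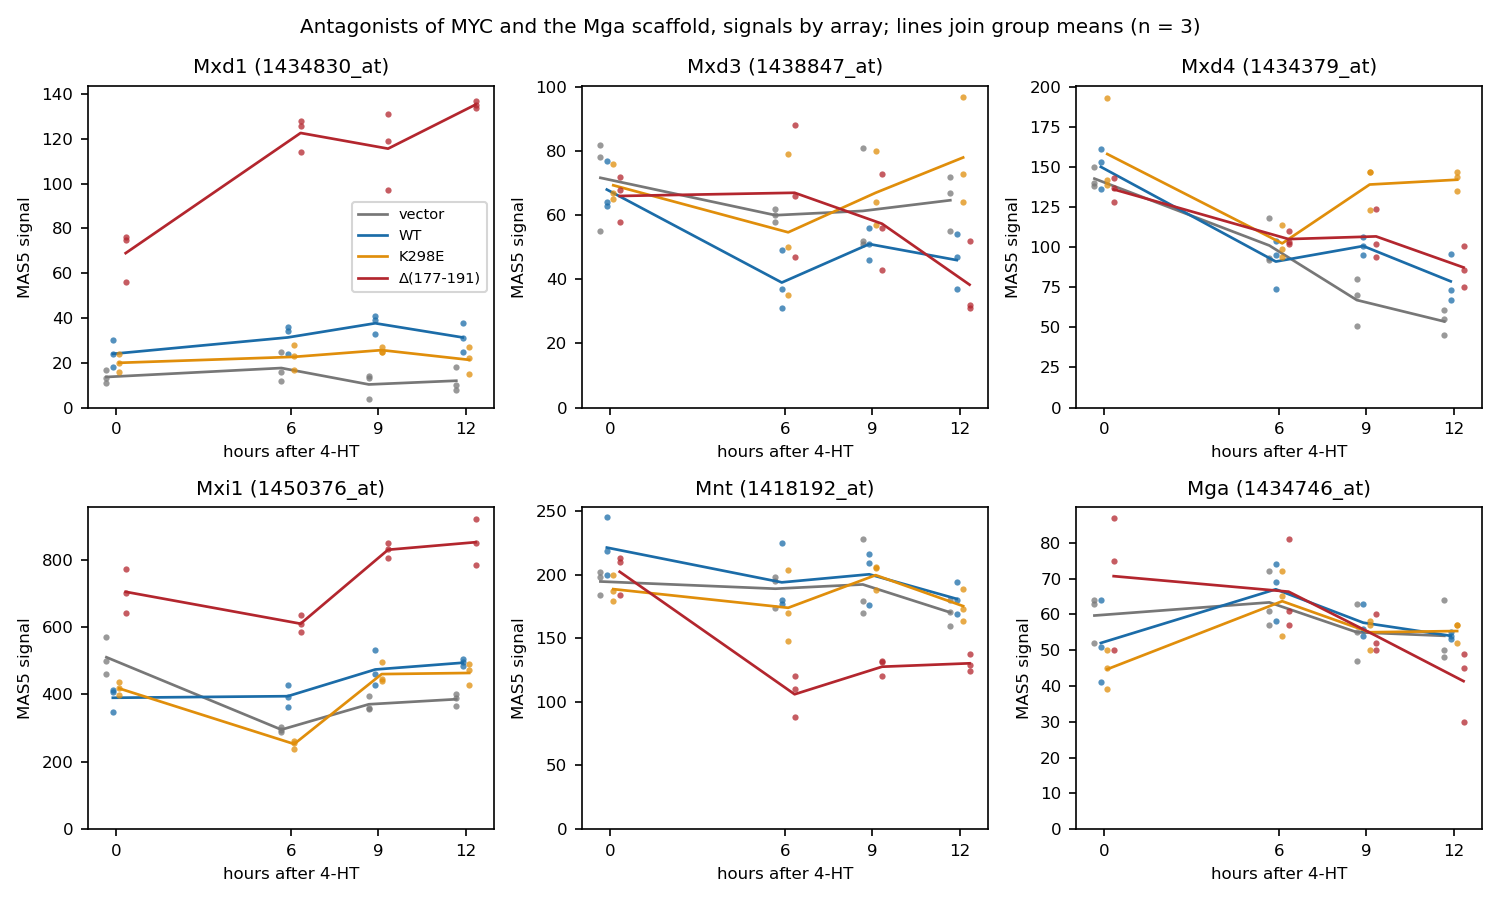
Signals of the leading probe sets of Mxd1, Mxd3, Mxd4, Mxi1, Mnt and Mga by array (points) and group mean (lines, n = 3) against hours after 4-HT in the 4 lines. Mxd1 and Mxi1 lay highest in the Δ(177-191) line at every time, Mnt fell there from 184 to 213 to 88 to 138, and Mxd4 fell to 45 to 61 at 12 h in the vector line.

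Mxi1, an antagonist of MYC also known as a target of hypoxia and FOXO signalling, changed differently from vector in all 3 fusion lines. In the vector line its brighter probe set (1450376_at) read 571, 499 and 461 at 0 h, 303, 295 and 288 at 6 h, 357, 361 and 394 at 9 h, and 388, 402 and 367 at 12 h. WT arrays read 413, 408 and 349 at 0 h, 429, 392 and 363 at 6 h, 428, 461 and 533 at 9 h, and 483, 504 and 495 at 12 h. Every treated vector array was below every vector array at 0 h, while the 9 h and 12 h WT arrays were above those of the WT line at 0 h. K298E arrays read 398, 418 and 437 at 0 h, 239, 262 and 257 at 6 h, 495, 440 and 446 at 9 h, and 491, 429 and 471 at 12 h. Δ(177-191) arrays read 641, 773 and 700 at 0 h, 608, 636 and 586 at 6 h, 851, 805 and 833 at 9 h, and 921, 850 and 785 at 12 h. K298E thus shared the vector line's dip at 6 h but not its level at 9 h, and the Δ(177-191) arrays lay above all arrays of the other lines.

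Relative to vector, the mean change of Mxi1 was higher by 0.76 ± 0.10 in WT (adjusted p = 1.41e-07), by 0.65 ± 0.10 in Δ(177-191) (adjusted p = 1.17e-06) and by 0.40 ± 0.10 in K298E (adjusted p = 0.00818). At 6 h the differences were 0.80 in WT, 0.57 in Δ(177-191) and 0.06 in K298E (adjusted p = 5.1e-06, 0.000373 and 0.958). The second probe set (1425732_a_at, r = 0.98 with the first) gave 0.97, 0.84 and 0.51 for the means in WT, Δ(177-191) and K298E. The K298E call by 1450376_at was lost without vector replicate 1 at 0 h, without replicate 1 or 2 of every group (adjusted p of up to 0.23) and under median centring (adjusted p = 0.457). WT minus K298E was 0.36 ± 0.10 (adjusted p = 0.00821), lost without WT replicate 3 at 0 h, without replicate 2 or 3 of every group (adjusted p of up to 0.26), under median centring and in the mean over 9 and 12 h (adjusted p of up to 0.327 over the settings that kept all arrays). WT minus Δ(177-191) was 0.11, with a 95% interval from -0.09 to 0.31.

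Within lines, Mxi1 fell by 0.54 in the vector line (adjusted p = 4.8e-08) and rose by 0.21 ± 0.07 in WT (adjusted p = 0.0143), the latter lost without WT replicate 3 at 0 h and without replicate 2 or 3 of every group (adjusted p of up to 0.311). From 6 to 12 h it rose in all 4 lines, by 0.38, 0.32, 0.87 and 0.48 in vector, WT, K298E and Δ(177-191). At 0 h it was above vector in the Δ(177-191) line (0.46 ± 0.08, adjusted p = 2.46e-05) and below it in WT (-0.38 ± 0.08, adjusted p = 0.00275) and K298E (-0.28 ± 0.08, adjusted p = 0.0383). The WT call was lost without vector replicate 1 at 0 h and without replicate 2 of every group (adjusted p of up to 0.0829). The K298E call was lost under 7 of 51 settings that left out an array or a replicate number (adjusted p of up to 0.423) and under median centring, and 1425732_a_at did not pass there (-0.25 ± 0.10, adjusted p = 0.204).

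Mnt, a broadly present antagonist that binds MAX in resting and cycling cells alike, fell in the Δ(177-191) line. Its brighter probe set (1418192_at) read 184, 210 and 213 at 0 h there, 110, 120 and 88 at 6 h, 120, 131 and 132 at 9 h, and 129, 138 and 124 at 12 h. All 9 treated arrays were below every 0 h array, a change of -0.73 ± 0.09 (adjusted p = 1.78e-08), or 1.66-fold. In the other 3 lines the 36 arrays ran from 148 to 245 and no mean change passed. The difference from vector was -0.64 ± 0.13 (adjusted p = 0.000194) and WT minus Δ(177-191) was 0.53 ± 0.13 (adjusted p = 0.00239), and both were lost without replicate 3 of every group (adjusted p = 0.0603 and 0.14). At 0 h the Δ(177-191) line differed from vector by 0.05 ± 0.11, with a 95% interval from -0.18 to 0.28. The dimmer probe set (1418193_at), at group means of 5 to 17.7, gave no call in these comparisons.

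Mga, which joins MAX within a variant Polycomb complex, gave calls in 2 comparisons of mean changes, and these depended on single arrays. Probe set 1434746_at read 87, 50 and 75 at 0 h in the Δ(177-191) line and 30 to 81 on treated arrays, which overlap. The change was -0.38 ± 0.15 (adjusted p = 0.0468), lost under 22 of 51 settings that left out an array or a replicate number (adjusted p of up to 0.746). WT minus Δ(177-191) was 0.58 ± 0.21 (adjusted p = 0.0428), lost under 15 of 51 (adjusted p of up to 0.483).

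**Figure D4:**
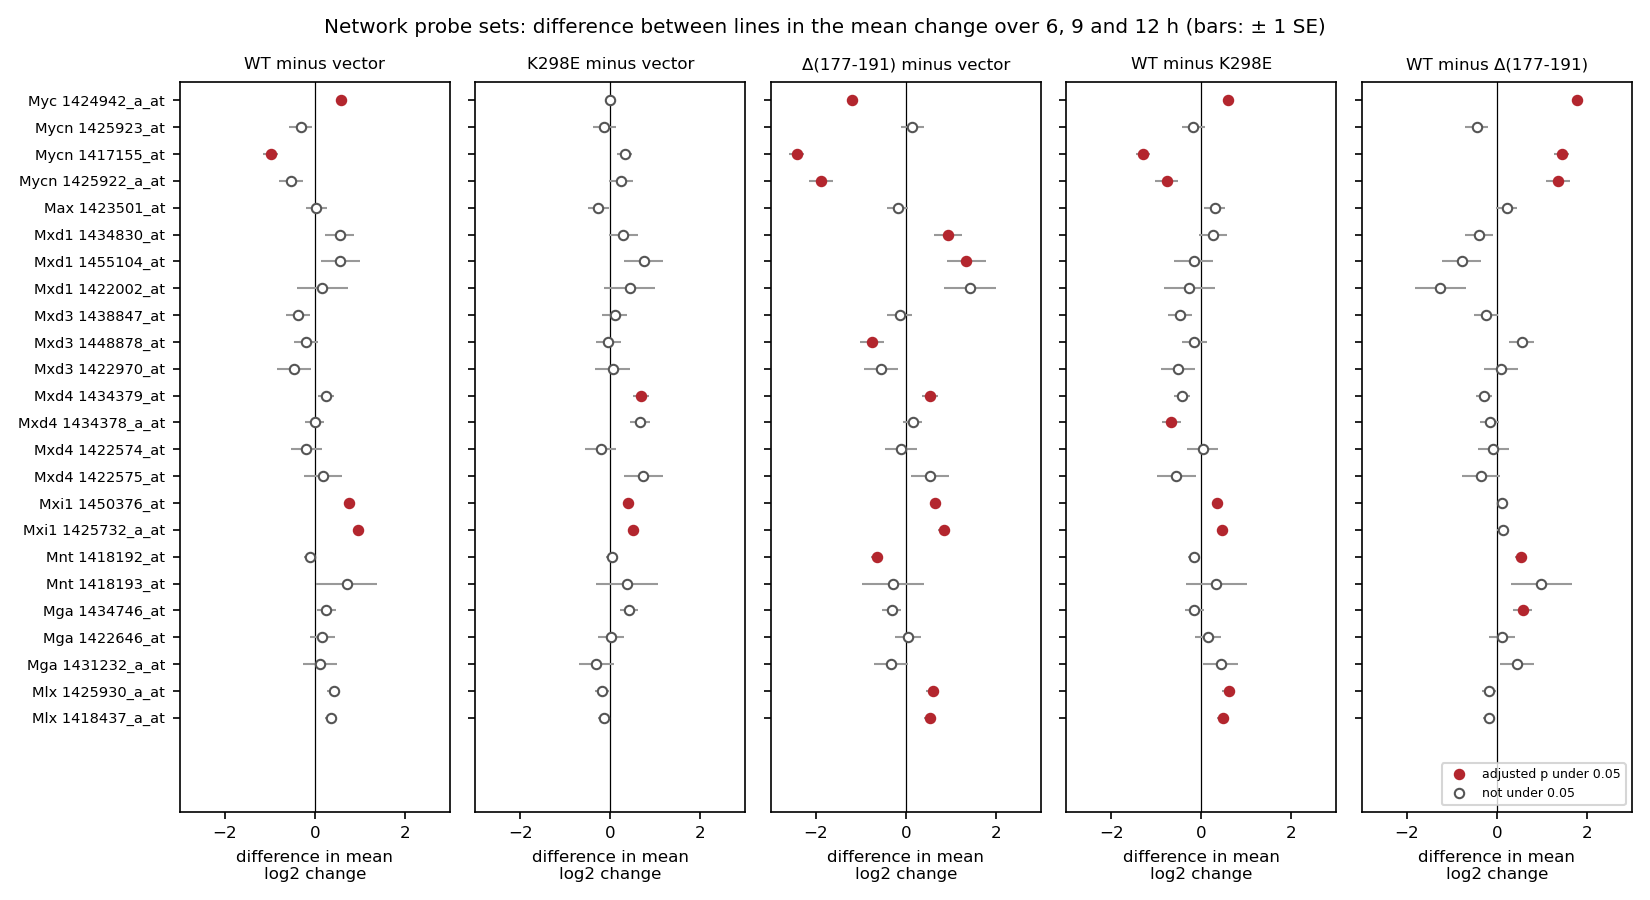
Differences between lines in the mean log2 change over 6, 9 and 12 h for the 24 tested network probe sets (points, with bars of 1 SE); filled points passed at an adjusted p under 0.05. Myc lies at 0.58 for WT and -1.19 for Δ(177-191) against vector, Mycn by 1417155_at at -0.98 and -2.42, and both Mxi1 probe sets are above 0 in the 3 comparisons with vector.

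Genes known as MYC targets in ribosome production rose after 4-HT in the vector and WT lines and fell in the Δ(177-191) line. Of 24 such genes tested, each by its brightest probe set, 23 rose and 0 fell in the vector line, beside 10.4% and 13.5% of all 12756 genes, with a median change of 0.47. In the WT line 23 rose and 0 fell, beside 16.7% and 19.6%, with a median of 0.58. In the K298E line 6 rose and 0 fell (2.82% and 3.54% of all), with a median of 0.16, and in the Δ(177-191) line 1 rose and 15 fell (14.5% and 21.2% of all), with a median of -0.33. Median changes of all genes in the 4 lines lay between -0.07 and -0.01. Of the 24 genes, 18 had risen at 6 h in the K298E line but 0 at 12 h, with medians of 0.49 and -0.01, while in the WT line 23 had risen at 6 h and 20 at 12 h, with medians of 0.91 and 0.50. In the Δ(177-191) line 5 had risen and 6 fallen at 6 h, and 0 and 16 at 12 h, with medians of -0.09 and -0.44. In the vector line 23 had risen at 6 h and 18 at 12 h, with medians of 0.67 and 0.39.

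In differences between mean changes, Δ(177-191) minus vector gave 0 of the 24 ribosome genes higher and 22 lower (median -0.92), beside 11.2% and 14.4% of all genes. WT minus Δ(177-191) gave 22 higher and 0 lower (median 1.09), beside 14.3% and 11.1%. WT minus K298E gave 19 higher and 0 lower (median 0.50), beside 8.45% and 9.12%. K298E minus vector gave 0 higher and 10 lower (median -0.35), beside 3.84% and 2.22%, and 1 was called under median centring. The lines differed before 4-HT too: at 0 h 11 of the 24 were higher and 1 lower in Δ(177-191) than in vector (median 0.23), beside 13.2% and 15.3%. WT minus vector gave 2 higher and 0 lower, beside 5.08% and 4.48%. The 2 were Pus7, a pseudouridine synthase (0.33 ± 0.10, adjusted p = 0.0273), and Bop1, which processes large-subunit rRNA (0.24 ± 0.08, adjusted p = 0.0443), and under median centring neither was called. WT minus vector was thus 0.58 for Myc and had a median of 0.11 over the ribosome genes. Nolc1, a nucleolar chaperone, went in the WT line from 493 ± 24.3 at 0 h to 933 ± 55.6 at 12 h (SD, n = 3), in the vector line from 492 ± 40.7 to 861 ± 14.3, and in the Δ(177-191) line from 681 ± 77.4 to 431 ± 40.6. Its WT minus Δ(177-191) difference was 1.53 ± 0.10 (adjusted p = 3.69e-15).

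**Figure D5:**
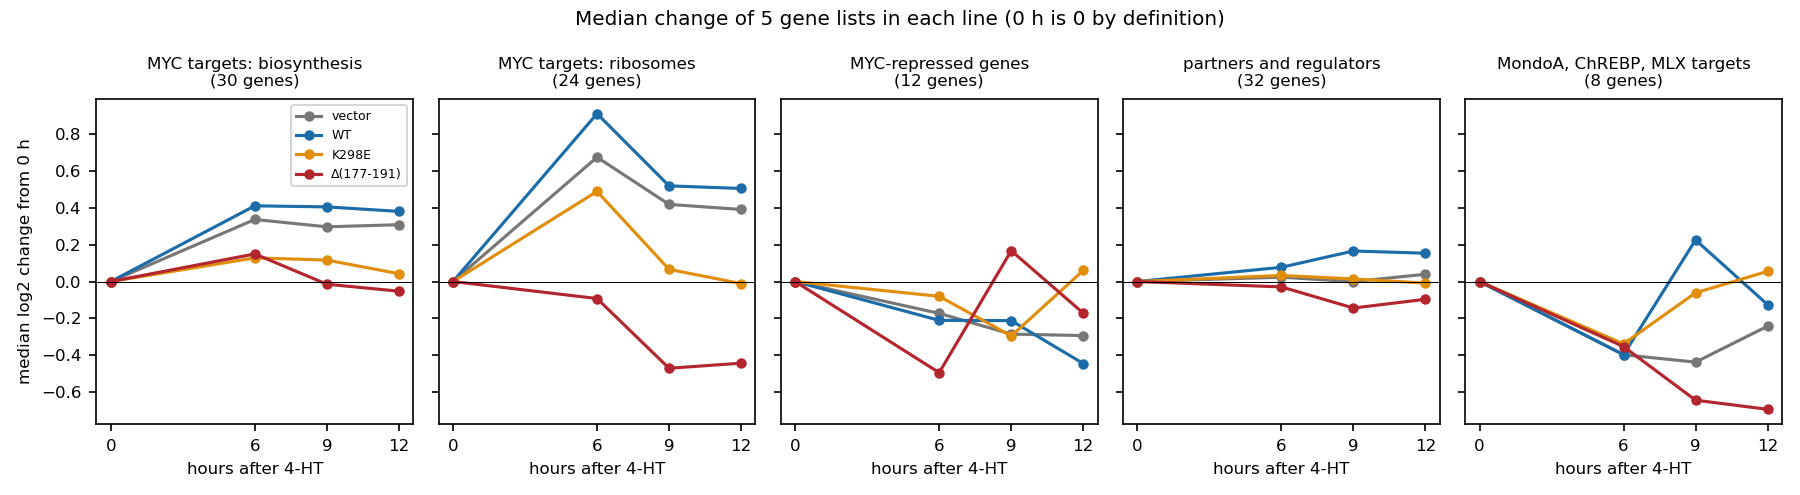
Median log2 change from 0 h (set to 0) of 5 gene lists against hours after 4-HT in the 4 lines, each gene by its brightest probe set. MYC target genes of ribosome production reach medians of 0.91 at 6 h in the WT line and -0.47 at 9 h in the Δ(177-191) line.

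MYC targets of biosynthesis and growth moved less evenly. Of 30 tested, 18 rose and 2 fell in the vector line, 17 and 3 in WT, 5 and 3 in K298E, and 6 and 10 in Δ(177-191), beside the same shares of all genes as for the ribosome list. Under median centring the last 3 became 20 and 1, 1 and 2, and 1 and 9. Gart, an enzyme of purine synthesis, fell in the Δ(177-191) line from 635 ± 40.5 at 0 h to 354 ± 5.57 at 12 h (SD, n = 3) and rose in the WT line from 446 ± 31.1 to 807 ± 29.2. The difference between these changes was 1.61 ± 0.09 (WT minus Δ(177-191) in the mean change, adjusted p = 5.99e-18), and for Srm, spermidine synthase, it was 1.25 ± 0.08 (adjusted p = 3.53e-15). Slc16a1, a lactate transporter, and Odc1, which makes polyamines, had the largest of 3 called differences in WT minus vector, 0.51 ± 0.13 and 0.38 ± 0.10 (adjusted p = 0.00611 and 0.0122). Slc7a5, an amino acid transporter, fell in both the vector line, by 0.65, and the Δ(177-191) line, by 0.27, a difference of 0.38 ± 0.09 (adjusted p = 0.002), and at 12 h it stood at 1109 ± 103 in vector and 579 ± 49.5 in Δ(177-191) (SD, n = 3).

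Of 18 proliferation markers tested, 9 rose and 1 fell in the vector line, beside 10.4% and 13.5% of all genes, and 9 and 3 in WT, beside 16.7% and 19.6%. In K298E 0 rose and 1 fell, beside 2.82% and 3.54%, and in Δ(177-191) 3 rose and 1 fell, beside 14.5% and 21.2%, with a median change of 0.06 where the ribosome genes had -0.33. Δ(177-191) minus vector gave 1 higher and 7 lower, beside 11.2% and 14.4%. Under median centring the WT counts became 8 and 1, the Δ(177-191) counts 0 and 1, and this difference 0 and 2. Their summed signal went from 22273 to 23049 at 0 h to 27438 to 29244 at 12 h in the vector line, and from 20916 to 22012 to 21951 to 22607 in the Δ(177-191) line. Their part in the MYC target values was not tested.

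Of 12 tested genes known to be repressed by MYC, alone or with MIZ1, 0 rose and 5 fell in the vector line, beside 10.4% and 13.5% of all genes, and 1 and 4 in WT, beside 16.7% and 19.6%. In K298E 1 rose and 2 fell, beside 2.82% and 3.54% (0 and 2 under median centring), and in Δ(177-191) 1 and 3, beside 14.5% and 21.2%. The medians in this order were -0.27, -0.32, -0.14 and -0.15. Cebpa, the gene of the factor that the fusions carry, is counted among the 12 and among the falls of every line. It changed most in the WT line, by -2.45 ± 0.12 (adjusted p = 1.14e-20), and least in the K298E line, by -0.70 ± 0.12 (adjusted p = 6.11e-05). The vector line had -1.78 and the Δ(177-191) line -1.67. WT minus K298E was -1.75 ± 0.17 (adjusted p = 9.48e-11). Whether the Cebpa probe set also reads the fusion transcripts was not tested. Gadd45a, a stress gene that restrains the cell cycle, was the gene that rose in all 3 fusion lines, by 1.23 in WT, 0.59 in K298E and 1.82 in Δ(177-191), the K298E call being lost under median centring. At 0 h it read 128 ± 6.08 in WT and 68.3 ± 9.29 in Δ(177-191), and at 12 h 348 ± 58.6 and 221 ± 17.8, while in vector it went from 67.3 ± 5.51 to 35.7 ± 3.51 (SD, n = 3). Minus the vector change these were 1.95 ± 0.19 in WT (adjusted p = 1.21e-10), 2.55 ± 0.19 in Δ(177-191) (adjusted p = 2.19e-14) and 1.32 ± 0.19 in K298E (adjusted p = 4.31e-06). Ndrg1, a differentiation and hypoxia gene, fell in all 4 lines, and by 1.45 in vector. Cdkn1a, the CDK inhibitor p21, fell in WT by 0.52, from 2943 ± 109 at 0 h to 1745 ± 76.2 at 12 h, and read 2114 ± 54.4 and 2136 ± 314 in K298E (SD, n = 3), a difference between the mean changes of -0.55 ± 0.12 (adjusted p = 0.000802). The fall was not particular to WT: the change was -0.50 ± 0.08 in Δ(177-191) (adjusted p = 5.03e-06). In vector it was -0.21 ± 0.08, which did not pass (adjusted p = 0.0821).

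Of 32 tested partners and regulators of the network, 7 rose and 4 fell in vector, beside 10.4% and 13.5% of all genes, and 11 and 5 in WT, beside 16.7% and 19.6%. The counts were 1 and 2 in K298E, beside 2.82% and 3.54%, and 7 and 9 in Δ(177-191), beside 14.5% and 21.2%. Under median centring these were 3 and 1 in vector, 0 and 1 in K298E and 1 and 7 in Δ(177-191). Bin1, an adaptor that binds MYC and restrains it, fell in the WT line from 271 ± 28.7 at 0 h to 113 ± 9.5 at 12 h (SD, n = 3), beside 294 ± 56.4 and 268 ± 22.7 in vector, and WT minus vector was -1.12 ± 0.13 (adjusted p = 8.27e-09). Bin1 fell in the other fusion lines too, with changes of -0.64 ± 0.09 in Δ(177-191) (adjusted p = 1.64e-07) and -0.37 ± 0.09 in K298E (adjusted p = 0.00798). Sin3b, a scaffold of MXD repression, rose in the Δ(177-191) line from 1056 ± 40.9 to 1555 ± 77.0 and fell in WT from 1063 ± 29.5 to 755 ± 31.8, a WT minus Δ(177-191) difference of -0.79 ± 0.07 (adjusted p = 2.42e-12). Ruvbl2, an ATPase that acts with MYC, rose in WT by 0.67 and fell in Δ(177-191) by 0.28, a difference of 0.95 ± 0.08 (adjusted p = 1.37e-12). Skp2, a ubiquitin ligase subunit that acts with MYC, differed in its change by 1.02 ± 0.27 between these lines (adjusted p = 0.00418), from 62.3 ± 13.8 at 0 h to 106 ± 10.0 at 12 h in WT and from 134 ± 8.66 to 102 ± 27.5 in Δ(177-191) (SD, n = 3). The arrays of these lines did not overlap at 0 h and did at 12 h. Pim2, a kinase of the STAT5 pathway, fell by 0.80 in vector, and the Δ(177-191) change exceeded this by 0.70 ± 0.08 (adjusted p = 1.07e-08).

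Mlxip, which encodes MondoA, rose in the WT and Δ(177-191) lines. In WT it read 137 ± 7.37 at 0 h, 195 ± 27.2 at 6 h and 178 ± 5.13 at 12 h, and in Δ(177-191) 165 ± 8.74, 266 ± 9.45 and 244 ± 20.2 (SD, n = 3). Its mean change exceeded that of vector by 0.49 ± 0.11 in WT (adjusted p = 0.00274) and by 0.70 ± 0.11 in Δ(177-191) (adjusted p = 5.14e-06). Of 8 tested target genes of MondoA, ChREBP and MLX, 0 rose and 4 fell in vector, beside 10.4% and 13.5% of all genes, and 2 and 3 in WT, beside 16.7% and 19.6%. In K298E 0 rose and 1 fell, beside 2.82% and 3.54%, and in Δ(177-191) 1 and 4, beside 14.5% and 21.2%, the last becoming 0 and 4 under median centring. Txnip, the best known MondoA target, fell in all 4 lines, from 2805 ± 193 to 723 ± 57.7 in WT and from 2517 ± 201 to 930 ± 30.2 in Δ(177-191). Hk2, hexokinase 2, rose in WT by 0.98 ± 0.07 (adjusted p = 5.12e-15) and fell in Δ(177-191) by 1.01 (-1.01 ± 0.07, adjusted p = 2e-15), a WT minus Δ(177-191) difference of 1.99 ± 0.10 (adjusted p = 1.09e-18). Hk2 is also a MYC target, and Myc too rose in WT and fell in Δ(177-191). A part of Myc in the Hk2 values was not tested.

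Likeness of pattern was measured as Pearson's r over the 16 group means among 7364 tested probe sets with 1 gene and a group mean signal of 100 or more, as a description with no test; the groups share lines and times. The 5 genes most like Myc were H2-T24 (r = 0.87), Amz2 (0.85), Ppp3ca (0.85), Krr1 (0.85) and Fbxo31 (0.84). Those most like Mxd1 were Met (0.98), Ccr1 (0.98), Cyba (0.98), P2ry14 (0.97) and Mgat1 (0.97), and those most like Mxi1 were Tmem192 (0.95), Osbpl7 (0.94), Tmem243 (0.93), Atrnl1 (0.93) and Itpr3 (0.92). For Mxd4 they were Ypel3 (0.84), Mkrn1 (0.84), Rnf167 (0.83), Tspo (0.82) and Ccndbp1 (0.82). Mxd1 and Mxi1 thus had closer neighbours than Myc and Mxd4.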

How the data were processed

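Intensity values were MAS5 signals deposited by the authors, 1 table of 48 arrays, with MAS5 named in the submitters' processing notes; software version and genome build are not given in the sources used here. From them, log2(signal + 3) was computed for 45037 probe sets, after 64 control probe sets were left out. A probe set was tested when 1 group mean exceeded the median of all log2 values, 4.09. One limma fit (version 3.58.1, R 4.3.3) held 16 group means, 32 residual degrees of freedom and a mean-variance trend, with Benjamini-Hochberg adjustment over 27167 probe sets and a threshold of 0.05. Symbols came from the platform annotation: 34945 probe sets had 1 symbol, 932 several and 9160 none. The fits were tested on simulated data.

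Each gene is led by its brightest probe set. The 10 network genes are always named; in each list up to 2 of the highest and 2 of the lowest called genes are named per comparison between lines, with the 5 genes most like Myc and each bright MXD-type gene. Members, motifs and lists were chosen with earlier results of these data known. Of the rule's list genes only some are described. The labels speak of triplicates and also of separate experiments, so p-values measure the spread between these arrays, which may be technical. Alternatives changed the pseudocount, the filter, the scaling, the weights and the arrays used. Arrays limit precision by their number, 3 a group. Mxd1, Mxd3, Mxi1, Mga and Mlx overlap other annotated genes.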

Additional observations from a re-analysis of the deposited data

Results flagged for a closer look

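The mean change over 6, 9 and 12 h differed between lines, by the test of the difference itself, for the leading probe sets of Myc, Mxi1, Mxd4, Mxd1, Mnt, Mga and Mlx. For Myc the differences were 0.58 in WT minus vector, -1.19 in Δ(177-191) minus vector, 0.59 in WT minus K298E and 1.78 in WT minus Δ(177-191). For Mxi1 they were 0.76, 0.40 and 0.65 in WT, K298E and Δ(177-191) minus vector, and 0.36 in WT minus K298E. For Mxd4 they were 0.68 in K298E and 0.53 in Δ(177-191) minus vector, and for Mxd1 0.94 in Δ(177-191) minus vector. For Mnt they were -0.64 in Δ(177-191) minus vector and 0.53 in WT minus Δ(177-191), for Mga 0.58 in WT minus Δ(177-191), and for Mlx 0.59 in Δ(177-191) minus vector and 0.61 in WT minus K298E. These differences are on the log2(signal + 3) scale and their arrays and tests stand with each gene above.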

How the results depend on the processing

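The 288 network results, 24 probe sets in 12 comparisons, were recomputed under the alternatives and without each of 48 arrays or each replicate number. The mean over 9 and 12 h and the filter on a group mean signal of 50 could be run for 216 of them each. Among the results run, none changed sign while called. Median centring ended 23 calls, quantile normalization 7 and added 3, and a mean over 9 and 12 h, chosen after seeing the data, ended 3 and added 8. The replicate block, which adds the replicate number to the fit, changed 0 of 288: the numbers did not pair the samples, since deviations of same-numbered arrays in different groups correlated from -0.15 to 0.15 (median 0.0095) and 20 of 48 arrays correlated best with an array of their own number.

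Under median centring the counts of network probe sets called were 0 in K298E minus vector, 6 in Δ(177-191) minus vector, 5 in WT minus K298E, 2 and 0 in the WT and K298E lines at 0 h and 26 over single times minus vector. In the K298E line's own change 1 was called with a pseudocount of 32 and 1 in the mean over 9 and 12 h, and at 0 h K298E had 1 with no filter. Under median centring the counts over all probe sets were 2217 in the vector line, 341 in K298E, 845, 178 and 2917 in WT, K298E and Δ(177-191) minus vector, 1527 and 3560 in WT minus K298E and WT minus Δ(177-191), 324, 254 and 3943 at 0 h in WT, K298E and Δ(177-191), 32932 and 7730 over single times from 0 h and minus vector, and 4115 from 6 to 12 h. Array weights gave 2001 in K298E minus vector and 1853 and 2307 in WT and K298E at 0 h.

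Leaving out arrays gave these ranges of network calls: 0 to 1 in the K298E line, 9 to 15 in Δ(177-191), 1 to 4 in K298E minus vector, 6 to 13 in Δ(177-191) minus vector, 3 to 8 in WT minus K298E, 3 to 6 in WT minus Δ(177-191), 1 to 5 and 0 to 2 at 0 h in WT and K298E, and 14 to 26 from 6 to 12 h. Over all probe sets they were 2964 to 5310 in vector, 442 to 1512 in K298E, 979 to 2142, 343 to 1379 and 3486 to 5592 in WT, K298E and Δ(177-191) minus vector, 1765 to 3950 and 3314 to 5524 in WT minus K298E and WT minus Δ(177-191), 349 to 1310 and 356 to 1527 at 0 h in WT and K298E, 36975 to 59224 and 10335 to 20473 over single times from 0 h and minus vector, and 5209 to 12180 from 6 to 12 h. Single arrays moved counts over all probe sets by over 1.5 times in the K298E line, to 884, 792 and 870 without its replicate 1, 2 or 3 at 0 h, and at 0 h in WT, to 722 without its replicate 2, and in K298E, to 829 without vector replicate 3 and 839 without its own replicate 3. Most of the lowest values came without replicate 2 or 3 of every group, which leaves 2 arrays a group. Signals near the bottom of the scale limit Mxd1 outside the Δ(177-191) line and the dim probe sets of Mxd4, Mnt and Mga.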
